A study of Homo sapiens with 24 samples.

Results

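Of the 5 genes described here, 4 belong to the ion pumps that carry sodium or protons out of the cell in exchange for potassium, and the fifth, FXYD3, encodes a small membrane protein that modulates such a pump. They are the sodium pump β subunit genes ATP1B1, ATP1B2 and ATP1B3, the FXYD gene FXYD3 and the proton pump catalytic gene ATP12A, 5 of the 28278 genes in the deposited table. They were chosen by name with their levels in all 8 groups of line and day already known, because FXYD3 and ATP1B2 had unlike patterns and ATP12A was low in one line. Their levels and changes are therefore given as a description, without tests.

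The sodium pump consists of a catalytic α subunit that splits ATP and a glycosylated β subunit that the α subunit needs to fold, leave the endoplasmic reticulum and reach the plasma membrane. FXYD proteins are single-span membrane proteins that bind the assembled pump and alter its affinity for ions or its turnover. ATP12A encodes the catalytic subunit of the non-gastric proton/potassium pump, a relative of the stomach's acid pump, and it too needs a β subunit. ATP1B2 was first described in glia as an adhesion molecule, and FXYD3 is known from glandular and squamous epithelia and their tumors.

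The levels came from bulk RNA sequencing of TYUC-1, a human esophageal neuroendocrine carcinoma line cultured in suspension with serum. The line carried a construct inducible for TAp63 (genotype i-TAp63) or for ΔNp63 (i-DNp63), the long and short forms of the transcription factor p63 of squamous epithelia. Doxycycline at 1 µg/ml was given for 0, 1, 3 or 6 days, with the vehicle DMSO for the remainder of a course of 6 days, and each of the 8 groups had 3 libraries. The series calls the replicates biological without stating how the cultures were kept separate, so the errors and p-values below measure the spread between these libraries. The day 0 group of each line carried the same construct and received DMSO throughout, and doxycycline without a construct was not analysed here. Each sample's treatment label names EPZ-6438, a blocker of the EZH2 methyltransferase, over the same number of days as doxycycline, whereas titles, induction labels and design text mention p63 alone. Whether EPZ-6438 was in the medium is not settled by these labels. Induction of p63, doxycycline and any EZH2 blocker therefore cannot be told apart in a comparison with day 0.

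Totals ran from 6375963 to 22019974 counts in 23 libraries, and library 3 of ΔNp63 day 1 had 1530847. That library stood apart from the others: HBG2, a fetal globin gene, was at 1727 CPM (counts scaled to the library's normalised total) against at most 30.6 elsewhere, PTPRC, a pan-leukocyte gene, at 89.1 CPM against at most 5.28, and TP63 at 69.2 CPM. Levels that rest on it are marked or given with and without it. Unless stated otherwise, log2 changes, SE and p-values come from a single unpaired fit of all 24 libraries. That library therefore also enters the SE at other days. TP63, the induced gene, was at 2.90 to 4.94 CPM in the 6 day 0 libraries and at 326 CPM or more in every other induced library. Of 10 neuroendocrine markers, CHGA, INSM1 and SCG2 were under 1 CPM in all groups, while ENO2 was at 452 CPM or more in the 23 libraries. The 4 acid-secreting parietal cell markers, ATP4A, ATP4B, CBLIF and KCNE2, summed to between 0.316 and 1.97 CPM in those libraries. There, markers of fibroblasts, immune cells and endothelium summed to 11.2 to 34.0, 16.6 to 27.3 and 0.998 to 3.14 CPM. Erythroid markers, HBG2 among them, summed to 0.722 to 48.2 CPM in the 23 libraries, a range that ΔNp63 day 0 spanned alone. In the library that stood apart they summed to 2666 CPM. In bulk RNA, fewer cells expressing a gene and less of its RNA per cell cannot be told apart.

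The sequences just upstream of the 3 genes whose levels varied most are shown because p63 binds DNA directly. They are the 250 bases before the RefSeq start of FXYD3 (chr19:35117750-35117999), ATP1B2 (chr17:7646377-7646626) and ATP12A (chr13:24680158-24680407), on the plus strand of GRCh38.p14. Capitals mark matches to CNNGNNNNNNCNNG, the spacing of the conserved bases in the p53 and p63 family's paired half-sites, which reads the same on both strands and can overlap itself.
FXYD3: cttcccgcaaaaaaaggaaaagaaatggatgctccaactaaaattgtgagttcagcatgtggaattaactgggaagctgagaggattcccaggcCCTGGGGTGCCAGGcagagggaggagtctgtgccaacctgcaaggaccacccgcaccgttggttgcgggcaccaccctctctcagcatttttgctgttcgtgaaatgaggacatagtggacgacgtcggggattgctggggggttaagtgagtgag
ATP1B2: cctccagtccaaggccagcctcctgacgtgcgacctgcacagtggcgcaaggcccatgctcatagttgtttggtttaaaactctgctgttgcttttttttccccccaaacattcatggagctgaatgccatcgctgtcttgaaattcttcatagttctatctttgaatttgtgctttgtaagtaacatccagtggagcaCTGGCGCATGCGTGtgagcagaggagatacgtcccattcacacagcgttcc
ATP12A: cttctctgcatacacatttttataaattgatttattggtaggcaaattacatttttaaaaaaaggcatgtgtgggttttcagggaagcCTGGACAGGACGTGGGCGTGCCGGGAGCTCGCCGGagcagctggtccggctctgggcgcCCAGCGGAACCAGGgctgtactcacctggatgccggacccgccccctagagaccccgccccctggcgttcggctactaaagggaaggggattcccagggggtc
FXYD3 held 1 match, beginning 156 bases before the start, and ATP1B2 held 1, beginning 51 bases before it. ATP12A held 4, of which the first 3 overlap. ATP1B1 and ATP1B3, not printed, held 3 and 5 matches. The pattern is loose: 68.6% of 35116 RefSeq promoter windows of this length contain it, so its presence is common to most genes. The stricter CATGNNNNNNCATG was in 0.296% of the windows and in 0 of these 5. The RefSeq start of FXYD3 lies 2177 bases inside the counted gene, whereas the other 4 starts coincide with the first counted base of their genes.

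FXYD3 had the widest range of the 5 genes. In the ΔNp63 line it was higher at day 3 and higher again at day 6, and in the TAp63 line it stayed near its starting level. The gene lies on hg38 chromosome 19 from 35115823 to 35124324, on the plus strand like the other 4 genes, and 65 of those bases belong to MIR6887. In the ΔNp63 line its 3 day 0 libraries were at 1.15, 2.27 and 1.64 CPM. The day 3 libraries were at 10.4, 12.9 and 8.78 CPM, and the day 6 libraries at 33.7, 39.1 and 34.9 CPM. No library of day 3 reached down to day 0 and none of day 6 reached down to day 3. The day 1 libraries lay at 2.31, 3.12 and 0.665 CPM, the last being a single count in the library that stood apart. Without it, day 1 was above day 0 with no overlap, at a ratio of means of 1.61, against 1.21 with it.

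The ratio of mean CPM to day 0 in the ΔNp63 line was 6.33 at day 3 and 21.3 at day 6. On the log2 scale these changes were 2.64 ± 0.310 (SE) and 4.38 ± 0.324, after 0.54 ± 0.335 at day 1 with the library that stood apart included. Paired by library number, the day 6 ratios were 29.3, 17.2 and 21.3, so all 3 pairs showed more than an order of magnitude. The day 6 level rested on 221 to 544 counts per library, and the day 0 level on 14 to 40.

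In the TAp63 line FXYD3 was at 3.39, 1.74 and 2.12 CPM at day 0 and at 1.21, 2.38 and 2.41 CPM at day 6. Those groups overlapped, and the log2 change was −0.20 ± 0.327. Day 1, at 1.48, 1.59 and 1.57 CPM, lay just below all day 0 libraries, with a log2 change of −0.57 ± 0.337. Day 3, at 1.04, 1.91 and 1.67 CPM, overlapped day 0 again. The lines overlapped before induction, whereas the TAp63 libraries lay below the ΔNp63 libraries at days 3 and 6. The day 6 change in the TAp63 line minus that in the ΔNp63 line was −4.59 ± 0.452. Ordered by level, ΔNp63 day 6 and ΔNp63 day 3 each stood clear of the next group, and the other 6 groups overlapped with their neighbours in that order.

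**Figure D1:**
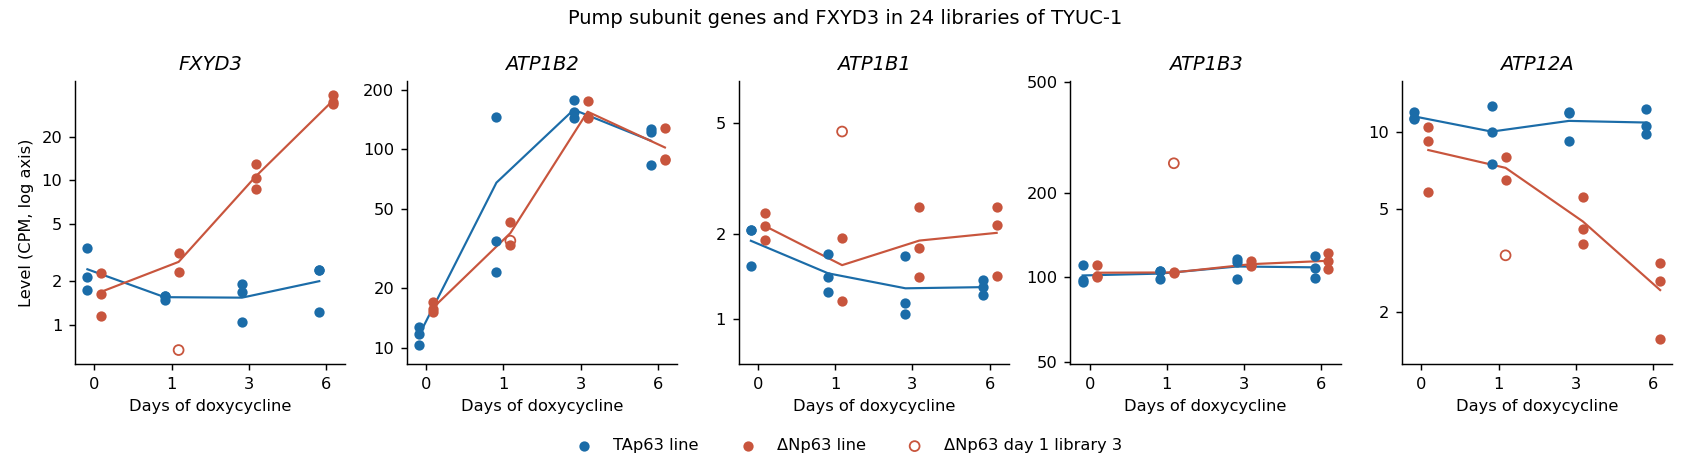
Level of each of the 5 genes in every library, in CPM on log axes, against days of doxycycline; points are libraries, lines join group means, and the open circle is ΔNp63 day 1 library 3, which the means leave out. FXYD3 reaches 33.7 to 39.1 CPM at ΔNp63 day 6 alone, ATP1B2 is above day 0 at every later day in both lines, and ATP12A is lowest at ΔNp63 day 6.

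Among the β subunit genes, ATP1B2 had by far the widest range, with group means from 11.6 to 158 CPM, and its pattern was alike in both lines: low before induction, highest at day 3 and somewhat lower at day 6. The gene lies on chromosome 17 from 7646627 to 7657771. Its TAp63 libraries were at 10.3, 12.7 and 11.7 CPM at day 0, and at 144.4, 153.7 and 176.6 CPM at day 3. Its ΔNp63 libraries were at 15.1, 15.6 and 16.9 CPM at day 0, and at 143.5, 144.9 and 175.5 CPM at day 3. At day 3 the 2 lines were interleaved, and the ratios of mean level to day 0 were 13.7 (TAp63) and 9.75 (ΔNp63). The log2 changes were 3.76 ± 0.444 and 3.28 ± 0.430.

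By day 6, ATP1B2 was at 83.7, 121.5 and 125.8 CPM in the TAp63 line and at 89.1, 88.7 and 128.3 CPM in the ΔNp63 line. In both lines every day 6 library was below every day 3 library and above every day 0 library. The log2 changes from day 0 were 3.24 ± 0.435 and 2.68 ± 0.422. Their difference, TAp63 minus ΔNp63, was 0.56 ± 0.573, with an interval of ± 2 SE from −0.59 to 1.71. Before induction the TAp63 libraries were below the ΔNp63 libraries without overlap, by a log2 difference of −0.44 ± 0.420. Paired by number, the day 6 ratios were 8.11, 9.59 and 10.7 in the TAp63 line and 5.92, 5.68 and 7.58 in the ΔNp63 line, so each TAp63 ratio exceeded each ΔNp63 ratio.

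Day 1 of ATP1B2 in the TAp63 line rested on 1 library: library 2 was at 145 CPM, a level of day 3, while libraries 1 and 3 were at 24.1 and 34.5 CPM. The log2 change from day 0 was 2.55 ± 0.426 with that library and 1.32 without it. TP63 itself was at 416 CPM in that library, against 371 and 326 CPM in the other two. In the ΔNp63 line day 1 was at 32.8, 42.8 and 34.6 CPM, above day 0 without overlap, with a log2 change of 1.22 ± 0.419. For ATP1B2 even the library that stood apart, the last of these, fell among its group. The ratio of mean level to day 0 was 2.31 with that library and 2.38 without it.

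ATP1B1, the most widespread β subunit gene in epithelia, was close to the bottom of the measurable range throughout. It lies on chromosome 1 from 169106690 to 169132719, where 190 bases are shared with NME7, and its libraries held 7 to 43 counts. In 23 libraries its level was 1.04 to 2.51 CPM, and in the library that stood apart it was 4.66 CPM from 7 counts. Group means ran from 1.28 to 2.59 CPM with that library and from 1.28 to 2.14 CPM without it. The TAp63 line was at 1.54, 2.08 and 2.07 CPM at day 0 and at 1.21, 1.38 and 1.30 CPM at day 6, lower without overlap and with a log2 change of −0.57 ± 0.353. In the ΔNp63 line day 6 (2.49, 2.16 and 1.42 CPM) overlapped day 0 (2.14, 2.38 and 1.90 CPM), with a change of −0.06 ± 0.345. At such counts, the interval of ± 2 SE on the latter ran from −0.75 to 0.63, so a moderate change in either direction was not detectable at this depth.

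ATP1B3, the third β subunit gene and one found in many tissues, was high and level. It lies on chromosome 3 from 141876643 to 141926548, and 23 libraries were between 96.4 and 122.1 CPM. Group means spanned only 1.13-fold without the library that stood apart, where it was at 255 CPM. The log2 changes at day 6 were 0.10 ± 0.216 in the TAp63 line and 0.14 ± 0.216 in the ΔNp63 line. The ± 2 SE intervals, −0.34 to 0.53 and −0.29 to 0.57, leave out a change of the size seen for ATP1B2. The day 1 change in the ΔNp63 line was 0.53 ± 0.220 with all 3 libraries and 0.0025 without that one.

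Genes were set side by side per kilobase of annotated exon, although reads were counted over longer spans. On that scale ATP1B3 stood at 56.1 to 63.3 CPM per kb over the group means, which here leave out the library that stood apart. ATP1B2 went from 3.67 ± 0.374 (SD, n = 3) at day 0 to 50.2 ± 5.25 at day 3 and 35.0 ± 7.35 at day 6 in the TAp63 line. The ΔNp63 line gave 5.03 ± 0.305, 49.0 ± 5.74 and 32.4 ± 7.21 CPM per kb. ATP1B1 was at 0.475 to 0.792 CPM per kb over the same group means. ATP1B2 thus made up 6.07% ± 0.391 (SD, n = 3) of the summed β subunit level per exon length at TAp63 day 0, 45.2% ± 4.69 at day 3 and 36.5% ± 5.65 at day 6. In the ΔNp63 line the shares were 7.99% ± 0.798, 44.0% ± 3.15 and 33.4% ± 5.05.

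The order of ATP1B2 and ATP1B3 depends on the length used. The authors counted reads over a single span for each gene, 11145 bases for ATP1B2 and 49906 for ATP1B3, against 3153 and 1811 bases of exon. Per kilobase of that span, ATP1B2 made up 33.0% ± 1.45 of the sum at TAp63 day 0 and 86.3% ± 2.11 at day 3. The same shares in the ΔNp63 line were 39.7% ± 2.61 and 85.7% ± 1.45. On both scales the share was higher at days 3 and 6 than at day 0 in both lines.

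**Figure D2:**
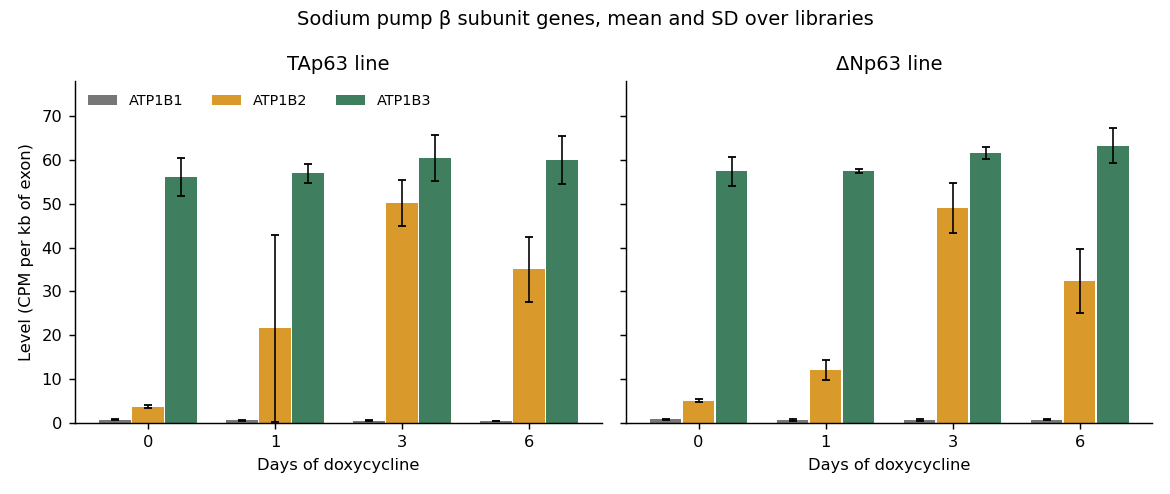
Levels of ATP1B1, ATP1B2 and ATP1B3 in CPM per kilobase of annotated exon against days of doxycycline; bars are means and error bars the SD over 3 libraries (2 at ΔNp63 day 1, where the library that stood apart is left out). ATP1B3 bars stay between 56.1 and 63.3, ATP1B2 bars are tallest at day 3 in both lines, and the wide error bar at TAp63 day 1 comes from library 2.

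ATP12A, the proton pump catalytic gene, had the reverse course to FXYD3: it was lower at later days in the ΔNp63 line and about level in the TAp63 line. It lies on chromosome 13 from 24680408 to 24712493. The ΔNp63 libraries were at 9.22, 10.4 and 5.84 CPM at day 0, at 4.22, 3.68 and 5.58 CPM at day 3, and at 2.65, 3.09 and 1.58 CPM at day 6. Day 3 lay below day 0 and day 6 below day 3 without overlap, although the highest day 3 library (5.58) was close to the lowest day 0 library (5.84). The log2 changes were −0.92 ± 0.260 at day 3 and −1.75 ± 0.280 at day 6. Paired by number, the day 3 ratios to day 0 were 0.4575, 0.354 and 0.956, so the third pair was nearly level at day 3. The ratio of means at day 6 was 0.288, and the paired ratios were 0.287, 0.298 and 0.271, with library 3 the lowest at both days. At day 1 the libraries were at 7.96, 6.52 and 3.33 CPM, the last in the library that stood apart, and overlapped day 0 with or without it.

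In the TAp63 line ATP12A was at 11.9, 11.3 and 11.1 CPM at day 0 and at 10.5, 12.2 and 9.82 CPM at day 6. The log2 change was −0.07 ± 0.253, and every later day overlapped day 0. Days 1 and 3 were at 12.5, 7.48 and 9.97 CPM and at 9.21, 11.8 and 11.9 CPM. All TAp63 libraries were above all ΔNp63 libraries at days 0, 3 and 6, so part of the gap was present before induction. That day 0 difference was 0.43 ± 0.254 on the log2 scale, and the difference between the lines' day 6 changes, TAp63 minus ΔNp63, was 1.67 ± 0.376. Per kilobase of exon, ATP12A was at most 2.58 CPM per kb as a group mean, against 56.1 or more for ATP1B3. The gap was narrower per kilobase of the counted span, at most 0.357 against 2.035 or more. ATP4A and ATP4B, which encode the α and β subunits of the stomach's acid pump, had group means under 1 CPM without the library that stood apart, where ATP4A was at 2.66 CPM. The summed markers of parietal cells were at 0.988 to 1.31 CPM at ΔNp63 day 0 and at 0.316 to 0.857 CPM at day 6.

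The summed tuft cell markers, which include POU2F3, were at 703 to 731 CPM at ΔNp63 day 0 and at 498.5 to 566 CPM at day 6, and at 734 to 776.5 and 619 to 659 CPM in the TAp63 line. Their part in the levels of ATP12A and FXYD3 was not tested. The glial markers GFAP, S100B, SLC1A2 and SLC1A3 were under 1 CPM in every group, also where ATP1B2 was high, while AQP4 was at 78.2 to 126 CPM in 23 libraries.

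No other gene of the pump family was called in the comparisons below. Of 17 further genes for α and β subunits, FXYD proteins and the β-binding NKAIN proteins, 6 had enough counts to be tested, among them FXYD5, NKAIN1, NKAIN2 and NKAIN3. FXYD5, the other FXYD gene with enough counts, was at 0 to 3.62 CPM in 23 libraries and at 142 CPM in the library that stood apart. NKAIN1, NKAIN2 and NKAIN3 were at 0.251 to 1.07, 0.421 to 2.79 and 0.257 to 2.93 CPM in the 23 libraries. FXYD3 was thus the one FXYD gene with a group mean above 5 CPM, outside the library that stood apart. FXYD2 and FXYD6 were listed at 0 in all 24 libraries. Their spans overlap the readthrough gene FXYD6-FXYD2 by 8009 and 39683 bases, so these zeros do not show absence of the transcripts.

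Pump activity is coupled to other transporters, and 4 lists of related genes were set beside the members: the 17 pump family genes, 11 calcium and copper pumps, 25 subunits and accessory proteins of the vacuolar proton pump, and 39 genes of coupled ion transport such as sodium/proton exchangers, potassium channels and carbonic anhydrases. Of these 92 genes, 69 were tested. At day 6 in the TAp63 line, edgeR called 0 of the 69 at an adjusted p under 0.05, where it called 0.441% of all 15642 genes; 5 had an unadjusted p under 0.05 and DESeq2 called 0. The median log2 change of the 69 was 0.04, beside −0.01 over all genes tested.

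In the ΔNp63 line at day 6, 1 of the 69 was called, lower, and 0 higher, where edgeR called 0.416% of all genes lower and 1.62% higher (2.03% in all). The gene was KCNN4, a calcium-activated potassium channel that lets potassium leave the cell. It was at 8.40, 9.43 and 8.86 CPM at day 0 and at 3.43, 2.80 and 3.16 CPM at day 6. Its log2 level fell by 1.51 ± 0.373, and it was lower in 3 of 3 pairs (adjusted p = 0.0351 by edgeR). In the TAp63 line the libraries went from 10.3, 11.9 and 9.55 CPM at day 0 to 7.85, 7.50 and 7.04 CPM at day 6, a log2 change of −0.51 ± 0.348 (edgeR adjusted p = 1). The difference between these changes, 1.00 ± 0.508, was not called (edgeR adjusted p = 1). KCNN4 was called in 8 of the 14 alternatives, and its log2 change stayed between −1.59 and −1.43 over all of them. It was not called when any 1 of the 6 libraries compared was left out, with edgeR adjusted p up to 0.156. Those 6 fits kept the library that stood apart, where KCNN4 was at 28.6 CPM against at most 11.9 CPM elsewhere. Day 3 was not part of the list counts. There, the log2 change of KCNN4 in the ΔNp63 line was −1.48 ± 0.361 (edgeR adjusted p = 0.0311). CA12, a carbonic anhydrase gene of the coupled transport list, was higher at day 3 in both lines. Its log2 changes were 2.49 ± 0.380 in the ΔNp63 line (edgeR adjusted p = 0.000508) and 2.33 ± 0.484 in the TAp63 line (edgeR adjusted p = 0.0276). At day 6 these changes were 0.86 ± 0.415 and 1.65 ± 0.503, and neither was called.

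The count depended strongly on whether the library number was kept as a block, which accounts for the shared deviations of same-numbered libraries. With the block alone it was 4 of 69, where 4.56% of all genes tested were called. With the block and without the library that stood apart, 17 of 71 were called (8 higher, 9 lower), where 14.1% of all genes tested were called. The genes of that fit are named after their values were seen. ATP2C2, a calcium and manganese pump of the secretory pathway, was higher by 1.08 on the log2 scale, and ATP2A3, a calcium pump of the endoplasmic reticulum, was lower at −0.65. Of the vacuolar pump, ATP6V1C2, ATP6V0D1, ATP6AP1 and ATP6V1D were higher, by 0.65, 0.43, 0.33 and 0.28, and ATP6V0A4 lower, at −0.82. ATP6V1C2 shares 1720 bases with PDIA6. The remaining 10 were coupled transport genes, among them KCNN4 at −1.55, the sodium/proton exchanger SLC9A9 at −0.59 and SGK1, a kinase that acts on ion transporters, at 0.39.

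The line by day difference at day 6 gave 0 calls among the 69, where edgeR called 0.0831% of all genes; 0 had an unadjusted p under 0.05 and DESeq2 called 0. With the block and without the library that stood apart it gave 3 (1.87% of all genes): KCNN4 at 1.01, ATP2A3 at 0.47 and ATP6V1C2 at −0.50, as TAp63 minus ΔNp63. The same fit called 2 at day 6 in the TAp63 line (3.6% of all genes), KCNN4 at −0.54 and the potassium channel KCNK1 at 0.44. Between the lines at day 0, 0 of the 69 were called, where edgeR called 0.0128% of all genes; 1 had an unadjusted p under 0.05 and DESeq2 called 0.

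**Figure D3:**
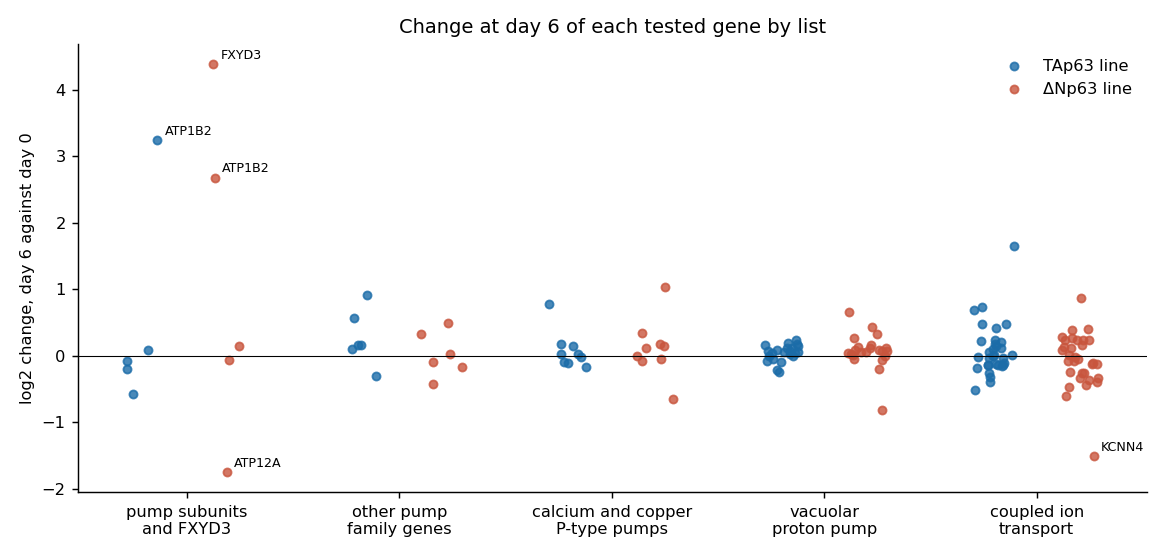
Log2 change at day 6 against day 0 of each tested gene of the 4 lists and of the 5 genes described here, by line; each point is 1 gene, and horizontal spread within a list has no meaning. FXYD3, ATP1B2 and ATP12A lie at 4.38, 2.68 and −1.75 in the ΔNp63 line, and KCNN4 is the list gene called there.

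Genes with the most similar course were sought among 421 genes that varied at least 2-fold over the 8 group means and reached 5 CPM, by Pearson's r of mean log2 CPM without the library that stood apart. The 8 means share lines, day 0 groups and library numbers, so r is a description. FXYD3 was most like KRT5 (r = 0.988), the type II keratin of basal squamous cells, then AMOT (0.978), which encodes a junction-associated scaffold of the Hippo pathway, and KRT4 (0.977), a keratin of the esophageal upper layers. KRT5 had means of 0.641 CPM at ΔNp63 day 0 and 22.5 CPM at day 6, and 0.495 and 0.711 CPM at the same days of the TAp63 line. KRT4 had a mean of 5.88 CPM at ΔNp63 day 6 and of at most 1.67 CPM in any other group. KRT4 met the 5 CPM limit only at ΔNp63 day 6, and KRT5 only at ΔNp63 days 3 and 6. Both keratins were thus admitted only through groups where FXYD3 was high. AMOT had a narrower range in the ΔNp63 line, with means of 79.3 and 77.9 CPM at days 0 and 1 and of 108.2 and 155.5 CPM at days 3 and 6. Its other group means lay between 74.8 and 108.2 CPM, so it met the 2-fold limit only through ΔNp63 day 6. AMOT too was thus admitted only through a group where FXYD3 was high.

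ATP1B2 was most like ZCCHC24 (r = 0.988), TMEFF2 (0.986), which encodes a transmembrane protein with follistatin-like domains, and GPD1 (0.984), a cytosolic glycerol-phosphate dehydrogenase. GPD1 met the 5 CPM limit only at day 3, where ATP1B2 was highest, with means of 6.13 (TAp63) and 5.51 CPM (ΔNp63). ZCCHC24 means went from 5.37 to 50.8 CPM between days 0 and 3 in the TAp63 line and from 5.26 to 55.4 CPM in the ΔNp63 line. In TAp63 day 1 library 2, where ATP1B2 was high, ZCCHC24 was at 39.1 CPM against 11.5 and 16.7 CPM in the other two, while TMEFF2 was at 16.8 CPM against 13.5 and 12.6 CPM.

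ATP12A was most like LYZ (r = 0.984), the gene of lysozyme, PRSS22 (0.977), a serine protease of airways, and STRA6 (0.976), the receptor for retinol-binding protein. LYZ means were 958.5 CPM at ΔNp63 day 0 and 573 CPM at day 6, a narrower range than that of ATP12A. LYZ, PRSS22 and STRA6 each met the 2-fold limit only through ΔNp63 day 6, the group where ATP12A was lowest. All 3 were thus admitted only through a group where ATP12A was low. With all 24 libraries, 1439 genes met the same limits, and 2, 2 and 1 of the 3 named genes remained among the first 3 for FXYD3, ATP1B2 and ATP12A. ATP1B1 and ATP1B3 spanned less than 2-fold without the library that stood apart and were not compared in this way.

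**Figure D4:**
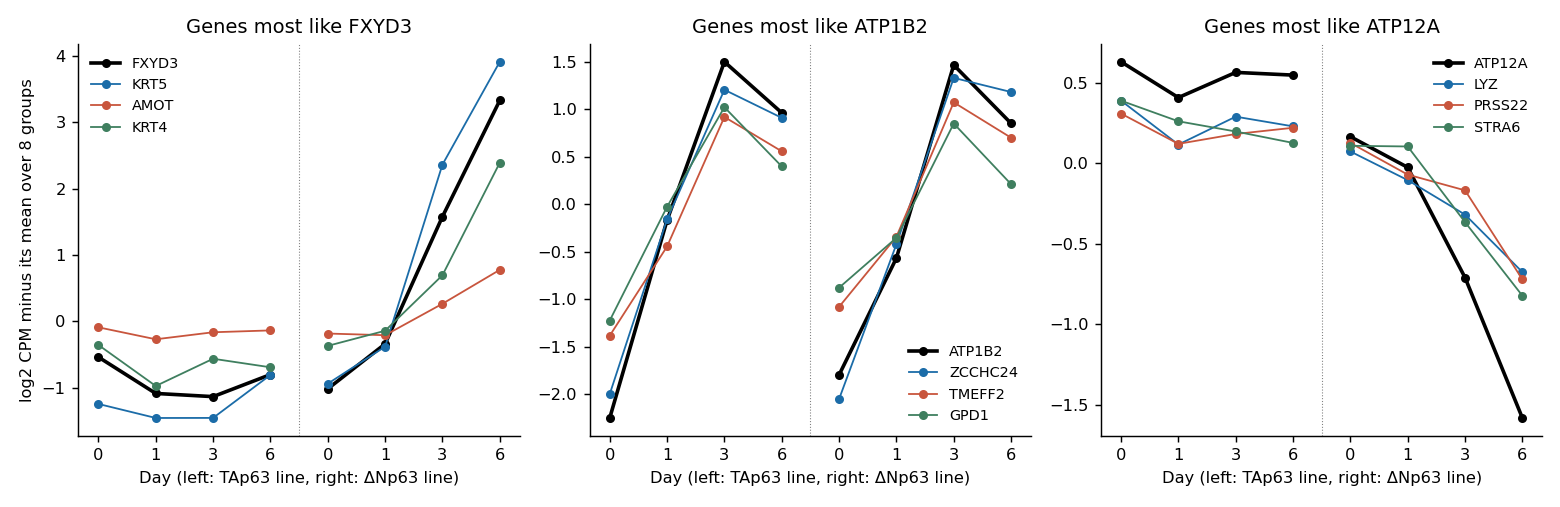
Mean log2 CPM of FXYD3, ATP1B2 and ATP12A (black) and of the 3 genes most like each, minus the gene's own mean over 8 groups, against day, with the TAp63 line left and the ΔNp63 line right of the dotted line. The FXYD3 set is high only at the right of its panel, the ATP1B2 set peaks at day 3 in both lines, and the ATP12A set is lowest at ΔNp63 day 6.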

How the data were processed

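Whole-read counts per gene were deposited by the authors as 1 table of 24 libraries. Per the submitters' processing notes, HISAT2 2.1.0, featureCounts 1.6.1 and DESeq2 were used with hg38, and the file header names featureCounts 2.0.0. Strand setting is not given in the sources used here. From the counts, CPM with TMM library sizes and log2 changes ± SE were computed in edgeR 4.0.16 (R 4.3.3): quasi-likelihood fits over all 8 groups, 15642 of 28278 genes after edgeR's filter on low counts, 16 residual degrees of freedom, Benjamini-Hochberg adjustment over all genes tested. The code was tested on simulated data. The genes described and the lists were chosen with earlier results of these data known.

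All 5 genes passed the filter on low counts. List genes were named where called, pump family genes where tested (some are not reported here), and the 3 most similar genes by correlation. Upstream sequences come from RefSeq (GRCh38.p14, 5 of 5 genes matched). Exon lengths are unions of GENCODE basic exons.

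Libraries of the same number deviated together from their group means: r was 0.16 to 0.689 for 77 of 77 pairs without ΔNp63 day 1 library 3, and each of 23 libraries correlated best with its own number. With it, 70 of 84 pairs were above 0.1, from −0.286. The numbers were therefore treated as pairing the libraries in the paired ratios and in the replicate block, from the data rather than the labels. The check without that library was made with the blocked counts already known. The main fit held no block, so the log2 changes ± SE and the edgeR p-values given without mention of the block leave this pairing out. No pair of libraries agreed within sampling noise (lowest chi-square per degree of freedom 5.09). Alternatives were other size factors, no filter, DESeq2 1.42.0, the replicate block, only the groups compared, leaving out the library that stood apart or each library of the groups compared in turn, and, chosen after seeing the data, leaving out that library and TAp63 day 1 library 2.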

Additional observations from a re-analysis of the deposited data

How the results depend on the processing

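Of the 550 recomputed values of the 40 log2 changes and differences of the 5 genes, 537 moved by less than the spread between replicates and 13 moved more. All 13 concerned day 1, namely ATP1B1 and ATP1B3 in the ΔNp63 line and ATP1B2 in the TAp63 line. At day 6 in the ΔNp63 line, the count of pump and ion transport genes called was 1, with 2.03% of all genes tested called. It became 3 (4.97%) without ΔNp63 day 1 library 3, 4 (4.56%) with the replicate block, and 17 (14.1%) with the replicate block and without that library. It was 3 (3.41%) with only the groups compared, 2 (3.23%) with DESeq2, and 4 (4.99%) without that library and TAp63 day 1 library 2, a setting chosen after seeing the data. Leaving out 1 of the 6 libraries compared gave 0 to 0 (1.1% to 1.42%). The replicate block without that library gave 2 calls at day 6 in the TAp63 line (3.6%) and 3 for the line by day difference (1.87%), against 0 in each fit without it. The block alone changed no call in the other 3 comparisons, and the day 0 comparison had 0 calls under every setting. The cause of these shifts was not tested. Counts of 7 to 43 limit ATP1B1, and FXYD3 outside the later ΔNp63 days rested on as few as 10 counts in 23 libraries.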
